A study of Mus musculus with 8 samples.

Results

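Whole brains of mouse fetuses at gestation day 15 that carried a knockout (KO) of Cav1 were compared with wild-type (WT) brains of the same stage by RNA-seq of polyadenylated RNA. The comparison used 6 of the 8 libraries of the series, 3 labelled KO and 3 labelled WT, and the KO brains of week 70 were not used here. It covers all genes expressed in these 6 libraries: 33334 of the 34299 genes of the deposited count table held at least 1 count, and 965 held none. The filter on low counts passed 19147 of the 33334 genes for testing and left 14187 untested. The labels name the genotypes only as Cav1 KO and WT, and the strain, the Cav1 allele, the litters, the sexes and any batch are not given in the sources used here.

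Total counts per library were 19414747 to 20833397 in WT and 14110031 to 15245283 in KO. Depth therefore separated the genotypes completely, and a batch effect and the genotype cannot be told apart. The labels call the libraries replicates but name no separate litters or cultures, so that p-values measure the spread between these samples. A library with 0 counts of a gene could still hold up to 3 counts, which is 0.150 to 0.200 CPM (counts per 1000000 counts of the scaled library), and this floor covers counting error only. Cav1 had 218 to 367 counts in the WT libraries and 0, 3 and 1 in the KO libraries, so that the labels and the targeted gene match. Brain markers were present: the tested genes held 25 of 25 radial glia markers, 20 of 20 newborn neuron markers and 17 of 19 forebrain markers. They also held 28 of 28 meningeal fibroblast and 22 of 22 choroid plexus and cilia genes. Passing the filter therefore does not tell these tissues apart. Some libraries stood apart on markers of other tissue. WT replicate 1 had summed CPM of 6472 for meningeal fibroblast genes and 1338 for cartilage and bone genes, against 1143 and 1504 for the former, and 362 and 357 for the latter, in the other WT libraries. WT replicate 3 had the highest sum of hindbrain and cerebellum genes, 989 against 671 and 725 CPM.

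Caveolin 1 is the main structural protein of caveolae, small pits in the plasma membrane that hold cholesterol, receptors and signalling proteins and flatten under stretch. In brain it is known chiefly from endothelium and the other cells of the vessel wall. At this stage of gestation radial glia divide at the ventricle and give rise to neurons directly or through intermediate progenitors, neurons send out axons, vessels grow inward from the meninges, and red blood cells switch from embryonic to adult globins.

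In edgeR's quasi-likelihood test with an adjusted p threshold of 0.05, 11993 of the 19147 tested genes (62.6%) differed between the genotypes. Of all tested genes, 5768 were higher in KO (30.1%) and 6225 were lower (32.5%), and their median log2 fold change was 0.03. CPM, scaled by the TMM method, did not overlap between the 3 KO and the 3 WT libraries for 13108 genes (68.5%). A call alone therefore marks no gene or list as unusual in these data, and each count below is to be read beside these shares. Protein-coding genes alone leaned lower: of 14652 tested, 3786 were called higher (25.8%) and 5923 lower. The shares also moved with transcript length and GC content, as described below, so that lists of long or GC-rich genes have a higher share of lower calls to be read against. A change of at least 1 on the log2 scale was seen in 3702 called genes.

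A narrower set was also counted, called stable here: genes called in the same direction in 11 fits, namely all libraries, each of the 6 libraries left out, DESeq2, another pair of scalings, and a fit corrected for transcript length and GC content. It held 5579 genes (29.1%), 2480 higher (13.0%) and 3099 lower (16.2%), which was 46.5% of the calls, and 2669 of them changed by at least 1. The corrected fit alone called 4745 of 19050 genes higher (24.9%) and 4768 lower (25.0%), with a median log2 fold change of 0.02. It took the call from 4664 genes and turned 892 to a call in the other direction. At least 1 of the 6 fits without a library took the call from 2202 genes.

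The size and sign of the difference followed the length and GC content of the longest annotated transcript, which were known for 99.5% of tested genes. In the 321 protein-coding genes under 38% GC, the 3 KO libraries stood at medians of 0.60, 0.64 and 0.81 on the log2 scale against the WT mean. In the 706 genes over 60% GC they stood at -0.64, -0.69 and -0.96. Every KO library thus sloped the same way, and KO replicate 3 sloped most, while the WT libraries stayed within 0.06 of each other's mean in these GC bins. Among protein-coding genes that were in both the shortest and the lowest-GC of 3 equal classes, 68.5% were called higher, with a median of 0.64. Among those in the longest and highest-GC classes, 83.6% were called lower, with a median of -0.93. Across all genes with known values, which are not independent, Spearman's rho between GC and the difference was -0.42, -0.45 and -0.52 for the 3 KO libraries, and 0.004 for the corrected fit. RNA quality was not given in the sources used here, and what moves with length and GC was not tested beyond this correction.

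**Figure D1:**
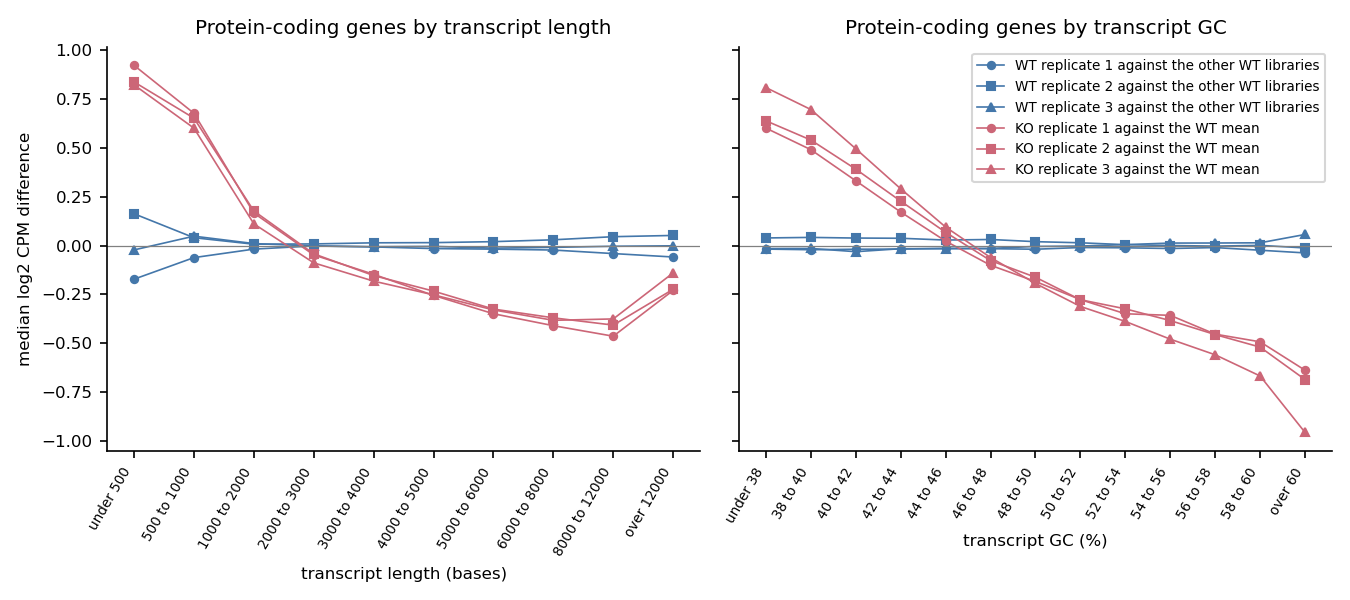
Median log2 CPM difference of protein-coding genes by bins of transcript length in bases (left) and GC in percent (right), with a line for each library. The 3 KO lines fall from low to high GC, reaching -0.64 to -0.96 over 60% GC, and lie above 0 for short and below 0 for long transcripts, nearer to 0 again in the longest bin, over 12000 bases (-0.14 to -0.23), while the WT lines lie near 0.

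To describe pathways and cell types, 78 lists with 2135 genes of the table were used, of which 2042 genes were tested. The list median was below 0 in 62 of them, and in 62 after the correction, and 72 lists kept their sign. The correction brought 64 medians closer to 0. In 33 lists at least 4 members were called in each direction; in 31 of these the higher members had the lower median GC, and in 23 they had the shorter transcripts. Each list described is therefore given with its uncorrected and its corrected median, and no list was given a test of its own. In bulk tissue, fewer cells of a type and less RNA per cell cannot be told apart.

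**Figure D2:**
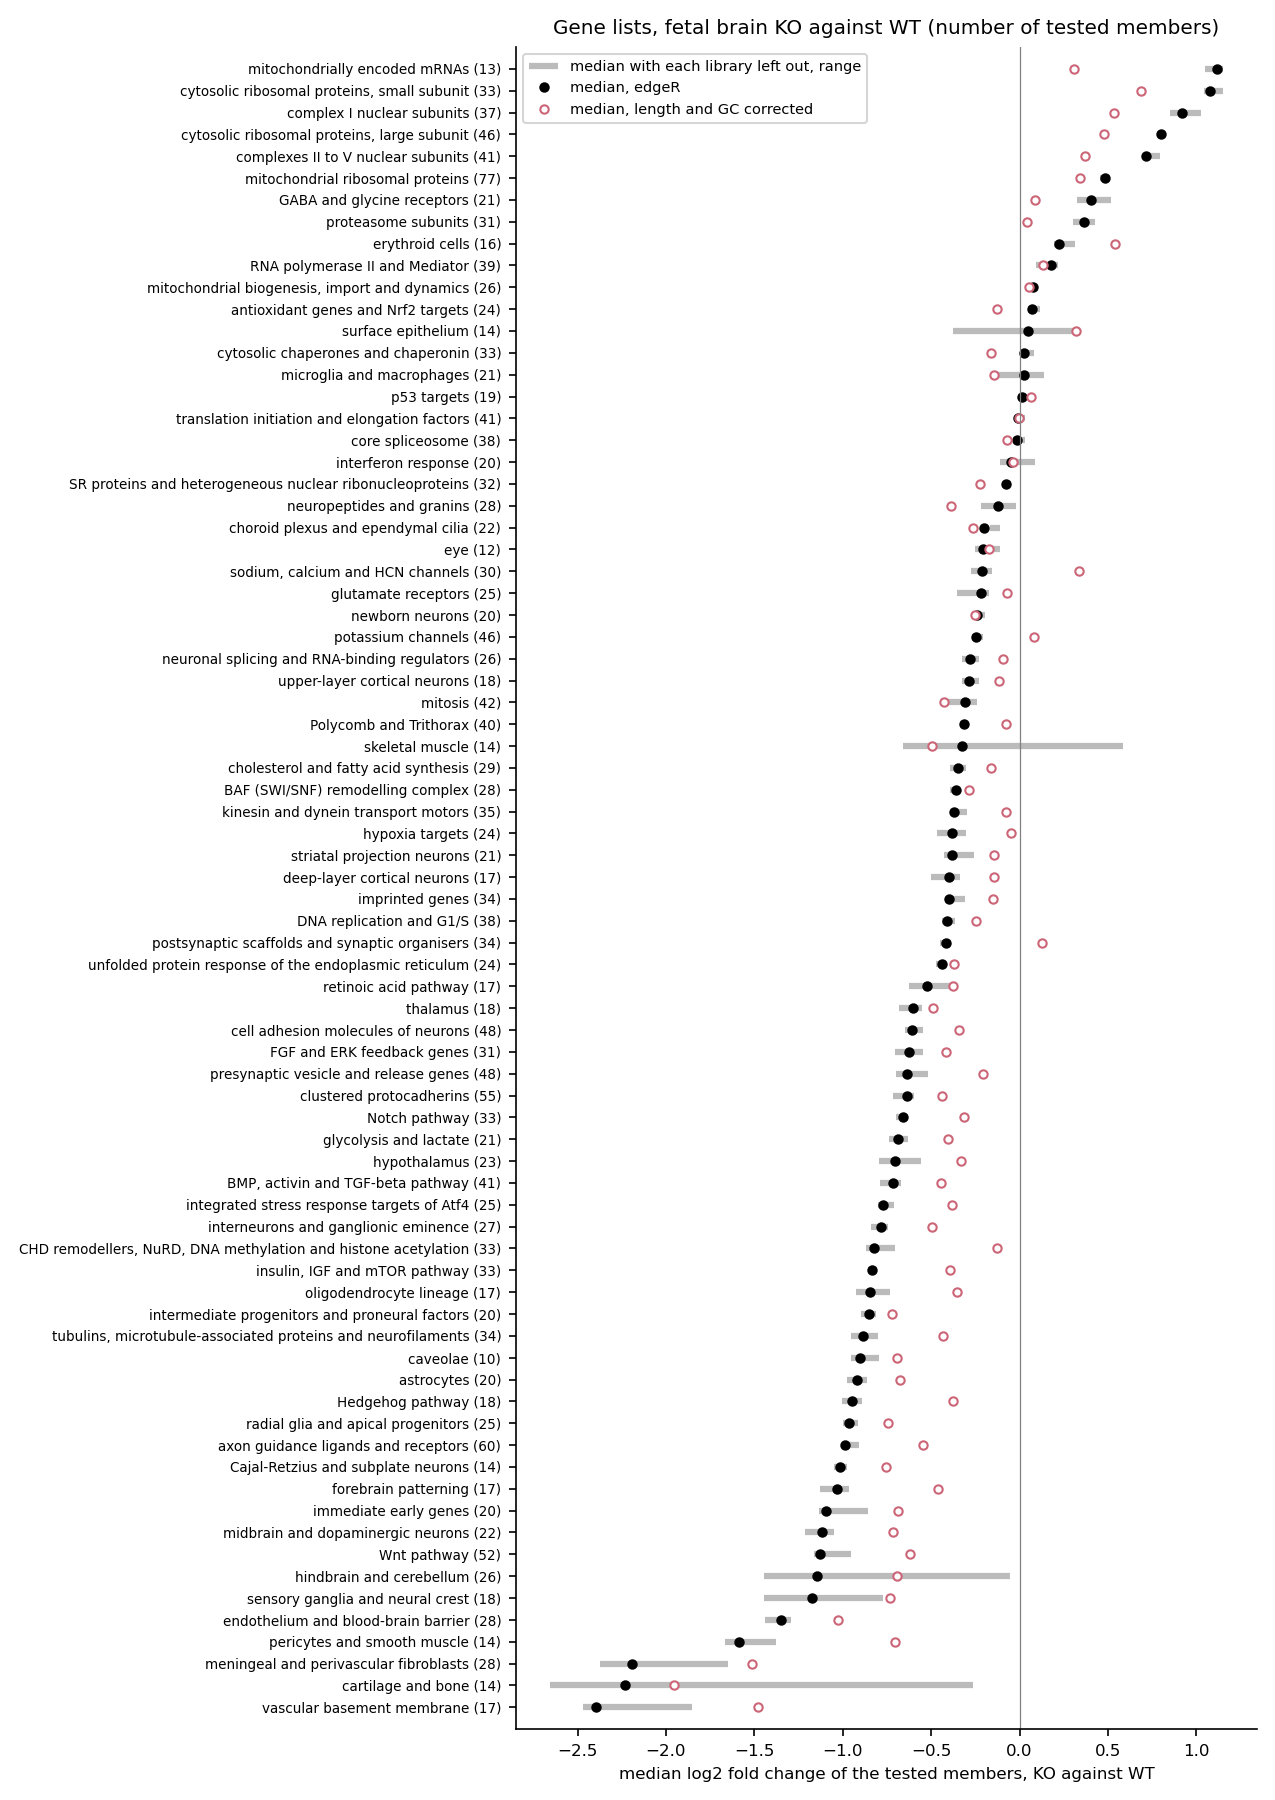
Median log2 fold change (KO against WT) of each gene list with at least 10 tested members; black points are edgeR medians, open points the length and GC corrected medians, and grey bars the range with each library left out. Ribosomal and respiratory chain lists lie highest, up to 1.12, and basement membrane, cartilage and meningeal lists lowest, down to -2.39, with long grey bars for cartilage, hindbrain and skeletal muscle.

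The genes that rose together were those of the ribosome and the respiratory chain. Of the large-subunit proteins of the cytosolic ribosome, 41 of 46 were called higher and 1 lower, with a median of 0.80 and a corrected median of 0.48. Of the small-subunit proteins 32 of 33 were called higher and none lower, with medians of 1.08 and 0.69. Stable calls numbered 30 higher and 1 lower in the large subunit and 25 and 0 in the small subunit. The summed CPM of the large subunit was 2767, 2918 and 2779 in WT and 5727, 5780 and 6018 in KO. Ribosomal protein genes have many near-identical processed pseudogenes, so that the value of a single gene is uncertain.

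Rpl32, of the large subunit, had 162, 178 and 170 CPM in WT and 480, 472 and 505 in KO. It changed on the log2 scale by 1.52 (edgeR SE 0.06, adjusted p 2.69e-08), and 1.11 after correction. Rps3, the most abundant gene of the small-subunit list, had 401, 396 and 380 CPM in WT and 860, 867 and 886 in KO. In both genes the groups lay far apart and each group was tight. Rps3 changed by 1.15, and by 1.20 after correction. Rpl28 was the only ribosomal protein gene called lower, at 19.2, 17.0 and 17.9 CPM in WT and 12.1, 13.3 and 13.3 in KO, which is a log2 change of -0.48. The translation factors divided, with 17 of 41 called higher and 16 lower and a median of -0.01 both before and after correction. Eef1b2, an exchange factor of elongation, rose by 1.11, whereas Eif3b, a scaffold of the initiation complex, fell by 1.49.

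Messenger RNAs of ribosomal proteins are known for a run of pyrimidines at their 5′ end, through which mTOR signalling controls their translation. Promoter windows from 250 bases before to 50 after the start, from RefSeq on GRCm38.p6, were found for 59 of the tested ribosomal protein genes. A run of at least 8 C or T over the annotated start base was present in 18 of them (30.5%), in 5.01% of 11528 tested protein-coding genes with a window, and in 3.86% of all 32851 windows. Ribosomal protein genes with the run had a median of 0.67 and those without it 0.87, or 0.50 and 0.63 after correction. The run is shown in capitals for the gene that fell, Rpl28 (chr7:4792715-4793014, plus strand), and for Rps18 (chr17:33955616-33955915, minus strand), which rose, because both carry a run of the same 11 bases in length:
Rpl28: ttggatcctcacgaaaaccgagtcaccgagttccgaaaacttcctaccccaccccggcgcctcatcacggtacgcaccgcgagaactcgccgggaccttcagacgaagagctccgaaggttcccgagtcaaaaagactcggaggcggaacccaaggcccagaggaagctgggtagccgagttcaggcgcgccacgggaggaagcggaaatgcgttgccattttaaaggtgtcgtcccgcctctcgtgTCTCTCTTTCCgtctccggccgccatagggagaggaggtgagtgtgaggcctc
Rps18: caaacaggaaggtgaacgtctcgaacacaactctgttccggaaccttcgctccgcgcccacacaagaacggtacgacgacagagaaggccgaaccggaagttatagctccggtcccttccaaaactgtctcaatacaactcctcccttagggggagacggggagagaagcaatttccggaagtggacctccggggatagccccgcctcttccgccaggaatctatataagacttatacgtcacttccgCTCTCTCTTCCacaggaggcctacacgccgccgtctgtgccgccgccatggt
Rps18 had 19.1, 19.2 and 20.2 CPM in WT and 36.1, 34.6 and 33.8 in KO, which is a log2 change of 0.84. A pyrimidine start was present in both genes, which were chosen with their directions known. Any part of the run in these changes was not tested. Mitochondrial ribosomal proteins rose with the cytosolic ones, with 55 of 77 called higher, 4 lower and medians of 0.48 and 0.34. Of 68 of them with a window, 1 had such a run (1.47%).

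Of the nuclear subunits of complex I, the entry point of the respiratory chain, 31 of 37 were called higher and 1 lower, with a median of 0.92 and a corrected median of 0.53. Of complexes II to V, 31 of 41 were called higher and 5 lower, with medians of 0.72 and 0.37. Ndufa4 had 69.6, 80.2 and 78.2 CPM in WT and 222, 210 and 214 in KO. Ndufb1, named for its large stable rise, is not in the list of complex I counted here. It had 9.49, 11.0 and 12.6 CPM in WT and 40.3, 42.7 and 33.0 in KO. The KO libraries lay above all WT libraries for both, with log2 fold changes of 1.50 and 1.81. Among the members that fell, Ndufv1, which binds NADH, changed by -0.58, Sdha, the flavoprotein of complex II, by -0.90, and Atp5b, the catalytic subunit of ATP synthase, by -0.46. Corrected values were -0.39, -0.91 and -0.49, and all 3 calls were stable. In complexes II to V the median transcript of the higher members had 932 bases and that of the lower members 2473.

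All 13 mRNAs encoded by the mitochondrial genome were called higher, with a median of 1.12 that was 0.31 after correction, and 8 of the calls were stable. Their summed CPM was 12567, 13877 and 13256 in WT and 28773, 29310 and 34508 in KO. The mitochondrial ribosomal RNAs were also higher, with 201, 235 and 263 CPM of mt-Rnr1 in WT and 881, 797 and 846 in KO, which is a log2 change of 1.85. For mt-Rnr2 it was 1.66. Genes for mitochondrial biogenesis, import and dynamics did not follow, with 9 of 26 called higher, 8 lower and medians of 0.07 and 0.05. Fis1, a fission receptor, rose by 0.82 and Mfn2, which fuses mitochondria, fell by 0.98.

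The proteasome and the spliceosome held calls in both directions. Of 31 proteasome subunits 21 were called higher and 7 lower, with a median of 0.36 that was 0.04 after correction; Psma2, of the core ring, rose by 1.04 and Psmd3, of the regulatory lid, fell by 0.97. Of 38 core spliceosome genes 16 were called higher and 15 lower, with medians of -0.01 and -0.07. Snrpd1, of the Sm ring, had 40.3, 40.8 and 38.1 CPM in WT and 85.3, 85.0 and 88.1 in KO. Prpf8, the large scaffold at the catalytic centre, had 466, 471 and 457 CPM in WT and 125, 127 and 118 in KO. Both genes separated the groups without overlap, in opposite directions. In RNA polymerase II and Mediator, Med21 rose by 1.37 and the largest polymerase subunit Polr2a fell by 2.28, with 18 of 39 called higher and 16 lower and medians of 0.18 and 0.13. The higher members had a median transcript of 1110 bases there and the lower ones 4054.

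Adult globins rose while the embryonic globins Hbb-y and Hba-x fell. Hbb-bs, an adult beta globin, had 444, 354 and 423 CPM in WT and 1962, 2426 and 2247 in KO. Its neighbour Hbb-bt had 144, 126 and 124 CPM in WT and 557, 734 and 584 in KO. The embryonic beta globin Hbb-y had 79.7, 81.2 and 61.3 CPM in WT and 31.4, 44.3 and 38.9 in KO. None of these genes overlapped between the groups. The log2 fold changes were 2.44 for Hbb-bs, 2.25 for Hbb-bt and -0.95 for Hbb-y (edgeR SE 0.13, adjusted p 0.000106 for Hbb-y), and 1.91, 1.74 and -1.53 after correction. The adult alpha globins Hba-a1 and Hba-a2 changed by 1.14 and 1.42, and the embryonic alpha globin Hba-x by -0.81. WT replicate 2 had less than the other WT libraries of Hba-a2, 145 against 321 and 290 CPM. Hbb-bh1, another embryonic beta globin, stayed at 0.400 to 1.03 CPM in all 6 libraries and was not called.

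Within each library the share of Hbb-y in the counts of Hbb-y, Hbb-bs and Hbb-bt needs no scaling between libraries. It was 11.9%, 14.5% and 10.1% in WT and 1.23%, 1.38% and 1.35% in KO, or 12.2 ± 2.21% against 1.32 ± 0.0791% (SD, n = 3 each, exact two-sided permutation p = 0.1). The share of Hba-x in the alpha globins was 1.74%, 2.30% and 1.78% in WT and 0.499%, 0.542% and 0.346% in KO, or 1.94 ± 0.310% against 0.462 ± 0.103% (SD, n = 3 each, exact two-sided permutation p = 0.1). With 3 against 3 libraries this test cannot go below 0.1. The KO libraries were below all WT libraries in both families. These genes are of like length, 554 to 801 bases. Close paralogs share sequence, and how multiply matching reads were counted is not given in the sources used here, which limits the split between Hbb-bs and Hbb-bt and between Hba-a1 and Hba-a2. Over the 16 tested of 21 erythroid genes, 7 were called higher and 2 lower, with a median of 0.22 and a corrected median of 0.54. Fetal stage and the blood left in the vessels were not measured, and their part in these values was not tested.

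**Figure D3:**
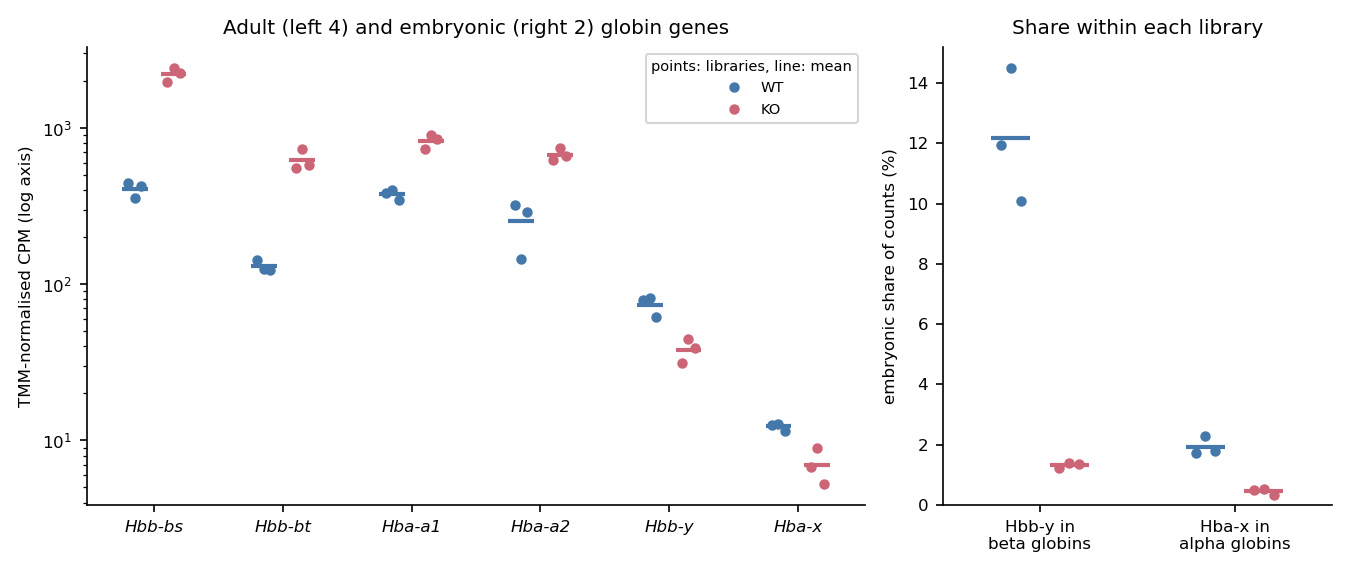
Left, TMM-normalised CPM on a log axis of 4 adult and 2 embryonic globin genes; points are libraries and lines are group means. Right, the embryonic share of beta and alpha globin counts in percent, which is 10.1 to 14.5% in WT and 1.23 to 1.38% in KO for Hbb-y.

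The globin promoters are shown because genes of a single cluster moved in opposite directions. They come from RefSeq on GRCm38.p6 and lie on the minus strand at chr7:103827879-103828178 for Hbb-bs, chr7:103813874-103814173 for Hbb-bt and chr7:103853158-103853457 for Hbb-y. Capitals mark CCAAT or TATAAA on either strand:
Hbb-bs: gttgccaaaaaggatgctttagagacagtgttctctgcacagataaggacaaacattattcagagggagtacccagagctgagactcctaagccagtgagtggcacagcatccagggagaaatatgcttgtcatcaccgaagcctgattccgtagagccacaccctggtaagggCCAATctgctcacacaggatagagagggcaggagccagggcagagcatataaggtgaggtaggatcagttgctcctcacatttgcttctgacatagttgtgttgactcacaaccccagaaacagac
Hbb-bt: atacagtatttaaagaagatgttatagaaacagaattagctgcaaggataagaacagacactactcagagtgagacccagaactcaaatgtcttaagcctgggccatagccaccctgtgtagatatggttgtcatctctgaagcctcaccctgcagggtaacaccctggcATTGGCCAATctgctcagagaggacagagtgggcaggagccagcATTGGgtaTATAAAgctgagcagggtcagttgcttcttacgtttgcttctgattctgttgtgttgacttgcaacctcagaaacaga
Hbb-y: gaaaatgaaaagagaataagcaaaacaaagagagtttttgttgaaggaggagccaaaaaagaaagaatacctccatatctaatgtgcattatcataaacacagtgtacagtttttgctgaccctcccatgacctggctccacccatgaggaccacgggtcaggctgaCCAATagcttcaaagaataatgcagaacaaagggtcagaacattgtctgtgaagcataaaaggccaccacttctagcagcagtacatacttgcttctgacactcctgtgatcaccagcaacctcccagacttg
The windows of Hbb-bs and Hbb-bt were identical in 226 of 311 aligned columns (72.7%). CCAAT was found in all 3 windows, those of the genes that rose and that of the gene that fell, and TATAAA in Hbb-bt alone. Of all promoter windows, 37.4% held CCAAT and 13.6% TATAAA.

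The lowest list medians belonged to the vascular basement membrane, cartilage and bone, the meninges and the vessels. All 17 tested basement membrane genes were called lower, 15 of them stably, with a median of -2.39 and a corrected median of -1.48. Of 28 endothelial and blood-brain barrier genes 23 were called lower and 2 higher, with medians of -1.35 and -1.03, and all 23 of the lower calls were stable. Of the 14 tested of 16 pericyte and smooth muscle genes 9 were called lower and 2 higher, with medians of -1.59 and -0.70. Of 28 meningeal and perivascular fibroblast genes 22 were called lower and 1 higher, with medians of -2.19 and -1.51, and 19 lower calls were stable. Without 1 library the uncorrected meningeal median ranged from -2.37 to -1.65 and the corrected one from -1.70 to -0.80.

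Type IV collagen is the network of the vascular basement membrane, built from the chains of Col4a1 and Col4a2. Col4a1 had 415, 259 and 338 CPM in WT and 32.0, 32.8 and 29.0 in KO. Col4a2 had 276, 182 and 240 CPM in WT and 22.7, 23.5 and 20.2 in KO. The WT libraries kept the same order in both genes and all lay far above KO. The log2 fold changes were -3.43 and -3.39 (edgeR SE 0.16 and 0.14, adjusted p 4.31e-08 and 3.03e-08), and -2.31 and -2.14 after correction. The genes lie head to head on chromosome 8 with opposite strands, and their promoter windows from RefSeq on GRCm38.p6 share 78 bases, chr8:11312777-11312854. Because both genes fell by nearly the same amount, both windows are shown, at chr8:11312777-11313076 on the minus strand for Col4a1 and chr8:11312555-11312854 on the plus strand for Col4a2, with the shared bases in capitals:
Col4a1: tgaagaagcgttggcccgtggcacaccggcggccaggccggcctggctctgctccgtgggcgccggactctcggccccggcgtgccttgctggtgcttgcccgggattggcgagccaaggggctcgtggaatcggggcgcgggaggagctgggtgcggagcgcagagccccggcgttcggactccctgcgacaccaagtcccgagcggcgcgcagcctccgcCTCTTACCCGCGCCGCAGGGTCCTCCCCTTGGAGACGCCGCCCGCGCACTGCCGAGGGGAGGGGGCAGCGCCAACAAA
Col4a2: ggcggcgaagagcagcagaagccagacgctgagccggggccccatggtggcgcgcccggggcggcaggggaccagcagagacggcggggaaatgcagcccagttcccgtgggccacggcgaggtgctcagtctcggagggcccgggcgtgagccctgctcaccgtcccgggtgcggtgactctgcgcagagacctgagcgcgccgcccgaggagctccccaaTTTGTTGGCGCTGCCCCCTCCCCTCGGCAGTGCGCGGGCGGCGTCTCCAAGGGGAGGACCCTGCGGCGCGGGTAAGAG
CCAAT was found in each window on 1 of the strands and nowhere wholly within the shared bases.

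Dag1, the laminin receptor dystroglycan, had 172, 175 and 178 CPM in WT and 36.1, 29.4 and 34.1 in KO, which is a log2 change of -2.40. Apcdd1, a Wnt inhibitor of the forming blood-brain barrier and the most abundant gene of the endothelial list, had 141, 135 and 151 CPM in WT and 40.5, 34.4 and 30.2 in KO. Notch3, which maintains mural cells, changed from 114, 99.2 and 101 to 30.6, 28.6 and 22.0 CPM. The KO libraries lay below every WT library in each of these genes. The members called higher were few. Egfl7, secreted by endothelium, had 23.4, 16.7 and 21.1 CPM in WT and 27.3, 30.5 and 24.8 in KO, which is a log2 change of 0.43 that was not stable. Rgs5 and Higd1b, both pericyte genes, rose by 0.62 and 1.83, the first from a level of 70.0 to 82.2 CPM in WT and the second from 1.04 to 1.35 CPM. Rgs5 was not called after correction (0.18, edgeR adjusted p 0.0626). Stable calls were 23 lower and 0 higher in the endothelial list, and 7 lower and 1 higher in the pericyte and smooth muscle list. Most called genes of both lists were thus lower, with these few exceptions, and which cells carried the change was not tested.

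Fibroblast and matrix genes made up 7 of the 10 largest stable falls with a mean of at least 50 counts: Col1a2, Col8a2, Col3a1, Cd248, Col4a1, Fmod and Col4a2. Several of these varied widely within WT, where replicate 1 was highest. Col3a1 had 624, 116 and 193 CPM in WT and 11.8, 33.5 and 18.5 in KO, which is a log2 change of -3.86 that was -2.85 at its smallest with 1 library left out. Cd248, the endosialin of perivascular cells, had 31.0, 15.8 and 19.8 CPM in WT and 2.40, 1.79 and 1.68 in KO. Its log2 change of -3.50 stayed between -3.69 and -3.18. Of the cartilage and bone list 14 of 22 genes were tested, 12 were called lower and only 2 of these calls were stable, and its median of -2.23 (-1.95 corrected) came as near to 0 as -0.27 (-0.07 corrected) with a library left out. Over the caveolae list, 7 of 10 tested genes were called lower and 1, Cav2, higher, with a median of -0.90 (-0.69 corrected). Gm15581, an antisense transcript whose annotated span on GRCm38, chr6:17206823-17385604, covers both Cav2 and Cav1 (chr6:17306335-17341452), was at least 24.5-fold higher in KO against the floor of 3 counts, where WT held 1, 0 and 0 counts and KO held 42, 54 and 91. Without strand in the counting, its reads cannot be told apart from those of the genes it spans.

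**Figure D4:**
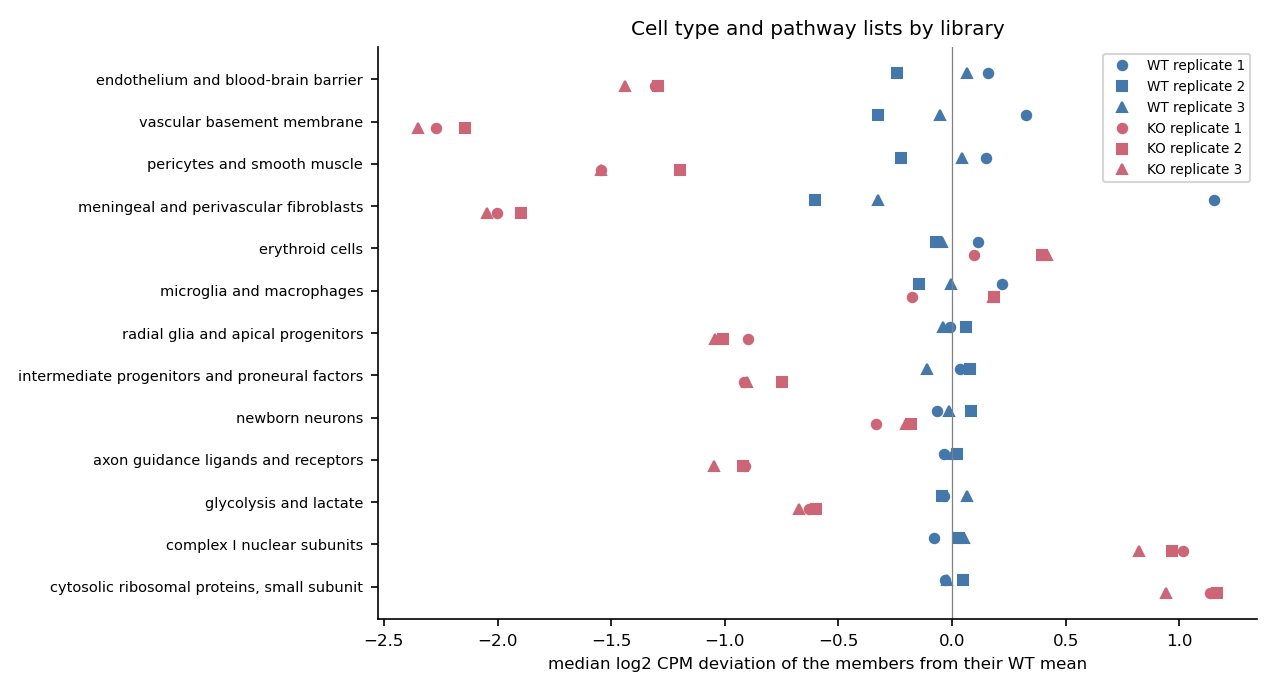
Median log2 CPM deviation of list members from their WT mean, in each of the 6 libraries. The 3 KO points lie close together at -2.15 to -2.35 for the basement membrane, while WT replicate 1 lies at 1.15 for meningeal fibroblasts and the erythroid and microglial lists overlap between the groups.

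Other cell types of the brain differed less or not in a single direction. Of 21 microglia and macrophage genes 6 were called higher and 6 lower, with a median of 0.02 that changed sign with the correction (-0.15). It also changed sign without WT replicate 2 (-0.16), KO replicate 2 (-0.07) or KO replicate 3 (-0.06), and without a filter on low counts (-0.07). Tyrobp, an adaptor of microglial receptors, had 2.10, 2.24 and 1.91 CPM in WT and 5.27, 6.49 and 6.22 in KO. Sall1, a transcription factor of microglia that neural progenitors also express, had 77.5, 78.6 and 76.0 CPM in WT and 31.4, 25.9 and 32.7 in KO. Both separated the groups, in opposite directions. Of 20 astrocyte genes 14 were called lower and 2 higher, with medians of -0.92 and -0.68. Of the 17 tested of 19 oligodendrocyte lineage genes 11 were called lower and 3 higher, with medians of -0.85 and -0.35, and Olig2 fell by 1.17. Of 22 choroid plexus and cilia genes 8 were called lower and 3 higher, with medians of -0.20 and -0.26, and Ttr, the transthyretin that marks the choroid plexus, was not called, at 323 to 411 CPM in WT and 325 to 417 in KO. Interferon response genes held 20 tested of 28, with 3 called higher, 4 lower and none stable, and medians of -0.05 and -0.04.

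Progenitor genes were lower in KO with few exceptions. Of 25 radial glia genes 22 were called lower and 3 higher, with a median of -0.97 and a corrected median of -0.74, and 20 lower calls were stable. Nes, the intermediate filament nestin, had 309, 348 and 295 CPM in WT and 63.7, 59.7 and 56.8 in KO. Sox9, which keeps progenitors and later astrocytes, had 90.9, 95.4 and 88.4 CPM in WT and 20.3 to 23.3 in KO. Fabp7, a fatty acid binding protein of radial glia, went the other way, with 264, 317 and 333 CPM in WT and 906, 824 and 886 in KO. All 3 genes separated the groups without overlap, and Fabp7 was among the 3 members called higher, against 22 called lower. The log2 fold changes were -2.40 for Nes, -2.09 for Sox9 and 1.52 for Fabp7 (edgeR SE 0.08, 0.07 and 0.09), and -1.44, -1.78 and 0.84 after correction. Dbi, the acyl-CoA binding protein, rose by 1.03. The 3 higher members had a median transcript of 880 bases and the 22 lower ones 4098.

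Intermediate progenitor and proneural genes had 18 of 20 called lower and none higher, with medians of -0.85 and -0.72. Insm1, a transcription factor that drives the birth of these cells, had 179, 188 and 163 CPM in WT and 44.1, 41.1 and 40.3 in KO. Of 42 mitosis genes 22 were called lower and 7 higher, with a median of -0.31 and a corrected median of -0.43, so that this list moved further from 0 with the correction. Of 38 replication genes 21 were called lower and 8 higher, with medians of -0.41 and -0.24. Mcm2, of the replicative helicase, had 79.5, 77.1 and 61.4 CPM in WT and 17.3, 17.7 and 19.0 in KO. Mki67, the Ki-67 antigen of cycling cells, changed from 263, 263 and 222 to 139, 139 and 158 CPM, a log2 change of -0.77. In these 3 genes KO lay below WT in every library, and WT replicate 3 was the lowest of the WT libraries. Orc6 and Mad2l1, short members of the lists, rose by 0.91 and 0.58. Mad2l1 lost its call in the corrected fit without WT replicate 3, KO replicate 2 or KO replicate 3, at 0.21, 0.26 and 0.31.

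Newborn neuron genes divided, with 10 of 20 called lower and 6 higher and medians of -0.24 and -0.25. Map1b, a microtubule-associated protein of growing axons and among the most abundant mRNAs, had 2996, 3423 and 3297 CPM in WT and 762, 764 and 809 in KO. Cd24a, a surface protein of young neurons, had 608, 684 and 671 CPM in WT and 1102, 1078 and 1209 in KO. Neither overlapped, and the log2 fold changes were -2.05 and 0.79, or -1.50 and 0.19 after correction. Cd24a lost its call in the corrected fit without KO replicate 1 or KO replicate 3, at 0.18 in both. Deep-layer cortical genes had 9 of 17 called lower and 4 higher, with a median of -0.40 (-0.15 corrected), and upper-layer genes 11 of 18 lower and 4 higher, with a median of -0.29 (-0.12 corrected). Bcl11b, which specifies subcerebral projection neurons, had 349, 397 and 355 CPM in WT and 97.0, 102 and 101 in KO. Pcp4, also a deep-layer gene, had 7.29, 8.40 and 8.66 CPM in WT and 22.3, 23.3 and 28.6 in KO. Cajal-Retzius and subplate genes were lower together, with 13 of 14 tested called lower and none higher and medians of -1.02 and -0.76. Reln, the secreted reelin that guides layering, had 365, 377 and 367 CPM in WT and 108, 99.7 and 119 in KO.

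Lists of genes that pattern brain regions held more lower than higher calls. Counts of lower and higher calls were 15 and 0 of 17 tested for the forebrain, 13 and 1 of 18 for the thalamus, 12 and 0 of 23 for the hypothalamus, and 16 and 2 of 22 for the midbrain. Their medians were -1.03, -0.60, -0.70 and -1.12, and -0.46, -0.49, -0.33 and -0.72 after correction. Tbr1, a transcription factor of forebrain glutamatergic neurons, had 223, 238 and 206 CPM in WT and 63.2, 61.9 and 67.5 in KO. Pax5, of the midbrain and its boundary, had 29.1, 32.8 and 27.8 CPM in WT and 8.41, 7.30 and 7.13 in KO. Otp, of the hypothalamus, changed from 31.4, 33.9 and 39.2 to 12.6, 8.60 and 9.91 CPM. In these 3 genes the groups did not overlap, which also held for 68.5% of all tested genes. For the hindbrain and cerebellum 10 of 26 tested genes were called lower and 1 higher, with a median of -1.15 (-0.69 corrected) that was -0.05 (0.08 corrected) without WT replicate 3. Interneuron and ganglionic eminence genes had 17 of 27 called lower and 2 higher, with medians of -0.79 and -0.50, whereas Dlx1, the most abundant of them, was at 186 to 242 CPM in WT and 207 to 213 in KO and was not called. After correction Dlx1 was called higher, at 0.65 (edgeR adjusted p 0.000233), also with each library left out.

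Axon guidance genes were called lower in 54 of 60 and higher in none, with a median of -0.99, a corrected median of -0.54 and 36 stable calls. Rgma, a repulsive cue, had 183, 199 and 198 CPM in WT and 46.5, 41.7 and 41.3 in KO, which is a log2 change of -2.16 (edgeR SE 0.07, adjusted p 1.40e-08). Plxna2, a semaphorin receptor and the most abundant of the list, had 537, 566 and 535 CPM in WT and 257, 251 and 266 in KO. Its change of -1.08 was -0.35 after correction. In the corrected fit 8 guidance genes were called higher and 40 lower. Neuronal adhesion molecules had 33 of 48 called lower and 3 higher, with medians of -0.61 and -0.34. Celsr1, a planar polarity cadherin, had 183, 202 and 181 CPM in WT and 24.4, 23.4 and 19.9 in KO, which is a log2 change of -3.06. Clustered protocadherins, which mark single neurons, had 38 of 55 tested called lower and none higher, with medians of -0.64 and -0.44. Some of these genes share exons with others of their cluster, so that the values of those genes are not independent.

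Tubulins, microtubule-associated proteins and neurofilaments had 26 of 34 called lower and 4 higher, with medians of -0.88 and -0.43. Tuba1a, the most abundant of them, had 3370, 3521 and 3424 CPM in WT and 2370, 2204 and 2183 in KO. Transport motors had 20 of 35 called lower and 8 higher, with medians of -0.37 and -0.08. Among them Dync1h1, the dynein heavy chain, fell from 1125, 1162 and 1149 to 348, 336 and 332 CPM. Dynll1, a dynein light chain, rose from 165, 179 and 184 to 391, 333 and 374 CPM. Subunits of a single motor therefore went in opposite directions, with corrected log2 fold changes of -0.79 and 0.87. Of presynaptic genes 35 of 48 were called lower and 5 higher, with medians of -0.64 and -0.21. Syn1, synapsin on vesicles, changed by -2.18.

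Of 5 lists of receptors, channels and postsynaptic scaffolds, 1 had a median above 0 before the correction and 4 had one after it. Postsynaptic scaffolds had a median of -0.41 that was 0.12 after correction, sodium, calcium and HCN channels -0.22 and 0.34, and potassium channels -0.25 and 0.08. In the corrected fit counts of higher and lower calls were 14 and 9 of 34 for the postsynaptic list, 15 and 3 of 30 for sodium, calcium and HCN channels, 16 and 8 of 46 tested for potassium channels, 7 and 5 of 25 for glutamate receptors, and 5 and 1 of 21 for GABA and glycine receptors. Of 25 glutamate receptors 12 were called lower and 4 higher, with medians of -0.22 and -0.07, and the corrected median was 0.13 without WT replicate 3. Gria2, the AMPA receptor subunit that sets calcium entry, had 695, 736 and 689 CPM in WT and 1229, 1289 and 1458 in KO, which is a log2 change of 0.91 (0.27 corrected). Grik3, a kainate receptor subunit, had 227, 253 and 246 CPM in WT and 89.9, 88.4 and 81.6 in KO, a change of -1.48 (-0.46 corrected). Of 21 GABA and glycine receptors 12 were called higher and 4 lower, with medians of 0.40 and 0.09. Gabrg1 rose by 1.38 and the metabotropic Gabbr2 fell by 1.41.

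Before the correction, signalling pathways of development were lower with few exceptions. Of 52 tested Wnt genes 42 were called lower and none higher, with medians of -1.13 and -0.62. Counts of lower and higher calls were 31 and 0 of 33 for Notch, 16 and 0 of 18 tested for Hedgehog, 25 and 2 of 41 for BMP and TGF-beta, 21 and 3 of 31 for FGF, and 24 and 2 of 33 for insulin, IGF and mTOR. Their medians were -0.66, -0.95, -0.72, -0.63 and -0.84, and -0.31, -0.38, -0.45, -0.42 and -0.39 after correction. In the corrected fit lower and higher calls were 33 and 4 for Wnt, 20 and 4 for Notch, and 10 and 3 for Hedgehog. They were 24 and 4 for BMP and TGF-beta, 18 and 2 for FGF, and 20 and 6 for insulin, IGF and mTOR. Stable lower calls were 30 for Wnt, 18 for Notch and 9 for Hedgehog. Ctnnb1, the beta-catenin that carries Wnt signals to the nucleus, had 940, 925 and 857 CPM in WT and 441, 399 and 392 in KO. Notch1, a receptor, had 177, 187 and 177 CPM in WT and 42.9, 39.6 and 35.1 in KO. Gli3, the Hedgehog repressor, had 79.6, 77.4 and 70.3 CPM in WT and 22.6, 21.8 and 24.9 in KO. In all 3 genes the KO libraries lay below the lowest WT library, with log2 fold changes of -1.14, -2.20 and -1.71 that were -0.86, -1.02 and -1.12 after correction. Id2, a BMP target, rose by 0.73, and Rheb, the GTPase that activates mTOR, by 0.52. Immediate early genes had 14 of 20 tested called lower and 1 higher, with medians of -1.10 and -0.69, and Jun changed from 66.6, 70.1 and 71.9 to 18.4, 18.5 and 19.0 CPM.

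Glycolysis genes had 17 of 21 called lower and 3 higher, with medians of -0.69 and -0.40. Aldoa, an aldolase, had 188, 182 and 215 CPM in WT and 110, 112 and 95.9 in KO. Pfkp, a phosphofructokinase and the most abundant gene of the list, rose from 401, 466 and 517 to 864, 885 and 852 CPM, a log2 change of 0.91 that was 1.48 after correction. The summed CPM of the list, 2468 to 2741 in WT and 1967 to 2190 in KO, holds this rise within it. Sterol and fatty acid synthesis had 18 of 29 called lower and 4 higher, with medians of -0.35 and -0.16. Scd2, a desaturase, had 1129, 1125 and 1157 CPM in WT and 445, 411 and 398 in KO, whereas Msmo1, a sterol oxidase, rose by 0.78. Hypoxia targets had 13 of 24 tested called lower and 7 higher, with medians of -0.38 and -0.05.

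Stress responses were not higher as lists. Unfolded protein response genes had 15 of 24 called lower and 4 higher, with medians of -0.44 and -0.37, and 12 lower calls were stable. Calr, the chaperone calreticulin, had 416, 406 and 437 CPM in WT and 212, 215 and 194 in KO, which is a log2 change of -1.02 (-1.08 corrected). The integrated stress response list, Atf4 and its targets, had 14 of 25 called lower and 4 higher, with medians of -0.77 and -0.38. Aars, a tRNA synthetase on the list, had 164, 161 and 177 CPM in WT and 59.2, 53.3 and 49.3 in KO. Atf4 itself rose slightly, from 106, 108 and 104 to 126, 128 and 122 CPM. Its log2 change of 0.24 lost the call without a filter on low counts (0.15, edgeR adjusted p 0.0727). Antioxidant genes had 9 of 24 called higher and 9 lower, with medians of 0.07 and -0.13, and p53 targets 6 of 19 tested higher and 8 lower, with medians of 0.01 and 0.06.

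Chromatin lists held more lower than higher calls before the correction. Of 28 BAF genes 21 were called lower and 1, Brd9, higher, with medians of -0.36 and -0.29. Smarca4, the ATPase of the complex, had 658, 707 and 655 CPM in WT and 181, 174 and 170 in KO, which is a log2 change of -1.94 (edgeR SE 0.06, adjusted p 1.43e-08). CHD, NuRD, DNA methylation and acetylation genes had 26 of 33 called lower and 1 higher, with a median of -0.82 that was -0.13 after correction. Chd4, of NuRD, had 598, 620 and 556 CPM in WT and 207, 198 and 183 in KO. Polycomb and Trithorax genes had 23 of 40 called lower and 8 higher, with medians of -0.31 and -0.08. In the corrected fit counts of lower and higher calls were 16 and 6 for BAF, 12 and 5 for the CHD list, and 13 and 14 for Polycomb and Trithorax. SR proteins and heterogeneous nuclear ribonucleoproteins divided, with 12 of 32 called higher and 14 lower and medians of -0.08 and -0.22, and Hnrnpa0 changed from 1012, 1083 and 1029 to 211, 186 and 143 CPM. Imprinted genes had 17 of 34 tested called lower and 12 higher, with medians of -0.40 and -0.15: Peg10 had 307, 301 and 319 CPM in WT and 92.0, 100 and 88.3 in KO, whereas the noncoding Meg3 and Rian rose by 0.55 and 0.99. Rian lost its call in the corrected fit without KO replicate 1 or KO replicate 2, at 0.23 and 0.21. Meg3 and Rian lie in a single imprinted cluster.

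Lars2, Mir6236 and Gm15564 fell in a near-constant ratio. Lars2 (chr9:123366927-123462666), the mitochondrial leucyl-tRNA synthetase, had read counts of 9333, 16040 and 10215 in WT against 1014, 678 and 653 in KO. Mir6236 (chr9:110281287-110281409) had read counts of 4908, 8552 and 5478 in WT against 494, 280 and 316 in KO. Gm15564, an antisense transcript on chromosome 16, had read counts of 950, 1849 and 1066 in WT against 89, 58 and 60 in KO. The libraries kept nearly the same order in the 3 genes, highest in WT replicate 2. The ratio of Lars2 to Mir6236 stayed between 1.86 and 2.42 and that of Mir6236 to Gm15564 between 4.63 and 5.55 in all 6 libraries. Transcripts of Lars2 and Gm15564 share 72 aligned bases at 98.6% identity. Together the 3 genes took 0.0729% to 0.134% of counts in WT and 0.00666% to 0.0113% in KO, while the mitochondrial ribosomal RNAs were higher in KO. Which molecules these reads come from was not tested.

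Among the 10 largest stable rises, Rpl29 and Ooep have near-absent counts in all WT libraries but WT replicate 2, and Gm10709, a processed pseudogene of Rpl29, shared that pattern. Gm10709 had read counts of 1, 79 and 3 in WT against 378, 307 and 506 in KO, and is 99.2% identical to Rpl29 over 480 bases. It changed on the log2 scale by 4.11 and reached 7.85 without WT replicate 2. Eif3j1, of an initiation complex, had read counts of 281, 71 and 61 in WT against 522, 551 and 583 in KO, so that here WT replicate 1 was the one apart. Its close copy Eif3j2 is 99.4% identical over 2379 bases, and the split of reads between them is uncertain. Eif3j2 was not called, at 0.01, but was called lower after correction, at -0.71 (edgeR adjusted p 2.77e-05). Further rises under this rule were Hbb-bs, Hbb-bt, Rps27rt, Atp5k, mt-Rnr1 and Ndufb1, which did not overlap between groups. Rps27rt, a retrotransposed copy of a small-subunit protein gene, had 105, 130 and 122 CPM in WT and 469, 485 and 450 in KO.

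**Figure D5:**
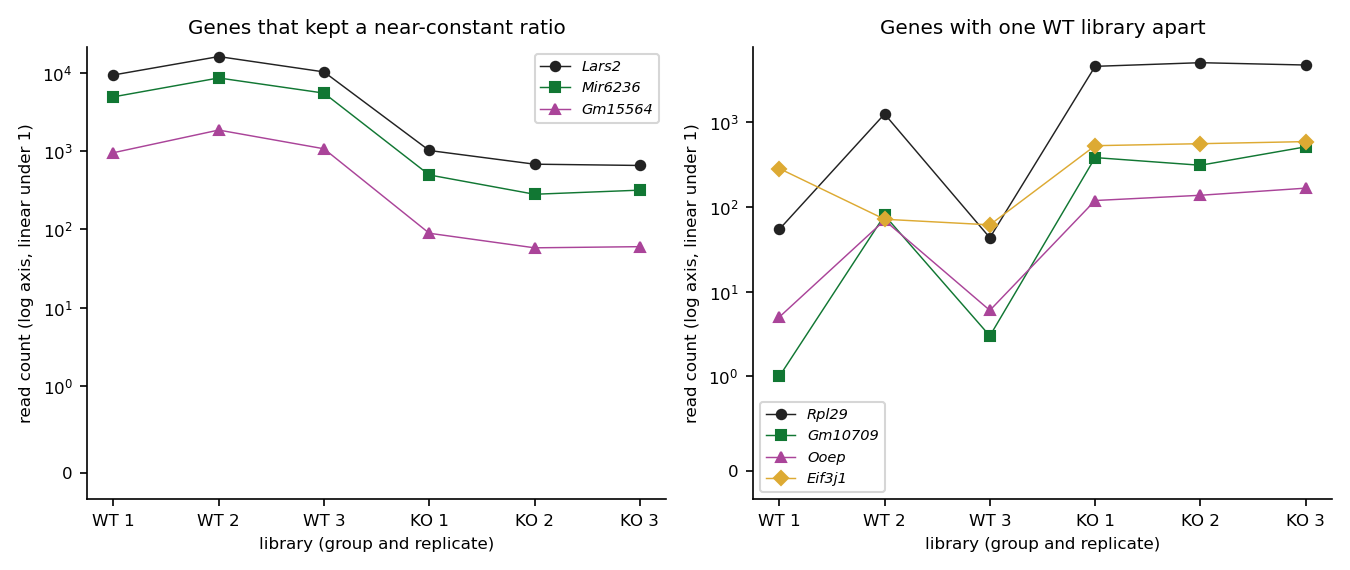
Read counts per library on a log axis (linear under 1). Left, Lars2, Mir6236 and Gm15564 run in parallel, with 1014 or fewer counts in KO; right, Rpl29, Gm10709 and Ooep are high in WT replicate 2 and Eif3j1 in WT replicate 1 among the WT libraries.

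Gene types differed as well. Protein-coding genes had a median of -0.12, which was 0.00 after correction, with 3786 of 14652 called higher and 5923 lower. Transcripts of the annotation class TEC, which await experimental evidence, had 514 of 886 called higher and 17 lower, with a median of 0.83 (0.28 corrected). Antisense genes had 269 of 782 called higher and 30 lower, with a median of 0.50 (0.21 corrected). Long intergenic noncoding RNAs had 230 of 577 called higher and 36 lower, with a median of 0.48 (0.09 corrected). Processed pseudogenes had 566 of 1291 called higher and 162 lower, with a median of 0.45 that was -0.13 after correction. Among tested protein-coding genes, of which 32.0% were stable, stable calls were 26.0% to 34.4% on each of 20 chromosomes. Within 5 Mb of Cav1 on chromosome 6 they were 9 of 21 other genes (42.9%).

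Over all tested genes the ETS and NRF1 promoter motifs went with small differences in the median. Over the 11528 tested protein-coding genes with a window, CCGGAAG, the ETS motif, searched on both strands, was present in 18.0%, against 8.86% of all windows. Genes with it had a median of 0.03 and those without it -0.15, or 0.07 and -0.01 after correction. The palindromic NRF1 motif, of a factor known for nuclear genes of the respiratory chain, was present in 2.12% of tested genes and 0.971% of all windows. Medians were 0.05 with it and -0.12 without it, or 0.08 and 0.006 after correction. Of 33 nuclear genes of complex I with a window 1 held it, and of 33 of complexes II to V 4 did. The 4 genes had a median of 0.08 and the other members of complexes II to V 0.81, or -0.05 and 0.47 after correction. For CCAAT the medians over the 11528 genes were -0.10 with it and -0.13 without it, or 0.007 and 0.008 after correction. For TATAAA they were -0.08 and -0.12, or -0.03 and 0.01 after correction. A match is a description of these letters and not a binding site.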

How the data were processed

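Polyadenylated RNA of whole fetal brain was selected on poly-T beads and primed with random hexamers, per the labels' protocols. The authors deposited raw read counts per Ensembl gene, per the file headers. The submitters' processing notes name FastQC, Trimmomatic, cutadapt, HISAT2, featureCounts and edgeR and the builds GRCm38 and GRCm39, without their roles; the use of strand is not given in the sources used here, so that overlapping, antisense and near-identical genes are uncertain.

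Groups followed the sample labels. The 6 fetal libraries were fitted with edgeR 4.0.16 in R 4.3.3, with filterByExpr, TMM scaling and a two-sided quasi-likelihood F-test, adjusted by Benjamini-Hochberg over all tested genes at a threshold of 0.05. Alternatives were DESeq2 1.42.0, RLE and upper-quartile scaling, other filters, thinned counts, protein-coding genes only, a block for the replicate number, leaving out each library, and a correction that smooths each library's deviation on transcript length and GC (mgcv 1.9.3, GENCODE release M 21 on GRCm38). Leaving out libraries in the corrected fit and the search for pyrimidine runs were added after seeing the data.

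The members, lists and tests were chosen with earlier results of these data known. Gene lists are described by calls and medians, without a test of the list. Genes named are Cav1 and its caveolae list, on or off genes, the 10 largest stable rises and falls without overlap between groups, with 50 or more counts on average and no clone name, the 10 most abundant protein-coding genes, and in each list the most abundant member and the called member with the smallest adjusted p in each direction. Dbi, Egfl7, Eif3j2, Gm10709, Gm15564, Hba-a1, Hba-a2, Hba-x, Hbb-bh1, Higd1b, Rps18 and mt-Rnr2 were named after their values were seen. Some genes that meet these rules are not reported here. Promoter windows came from RefSeq on GRCm38.p6. The edgeR, DESeq2 and corrected fits were tested on simulated counts in which 200 genes changed by 1 on the log2 scale. At the threshold of 0.05 edgeR recovered 72.2% of those tested, and 9.68% of its calls were false. DESeq2 recovered 72.7%, with 12.4% of its calls false. With a length and GC trend added, the corrected fit recovered 72.0%. Far more genes were called in the data (62.6%), so that this simulation cannot show how the fits perform there.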

Additional observations from a re-analysis of the deposited data

How the results depend on the processing

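Depth and genotype could not be separated, and no batch is given, so that within-batch values could not be had. With all 6 libraries 3702 called genes had a log2 change of at least 1. The count was 1694 in the length and GC corrected fit, 1606 with the replicate block and that correction, and 2389 over the 14652 protein-coding genes. With each library left out, in the uncorrected and corrected fits together, it was 1463 to 3837, all calls were 8160 to 11319, calls higher in KO 4015 to 5323 and calls lower in KO 4145 to 5996. The lower calls moved by over 1.5 times only in the corrected fit without KO replicate 3 (4145). All calls and the higher calls stayed within 1.5 times under the alternatives run, with 10934 calls in DESeq2 and 12542 with upper-quartile scaling. That scaling moved the median of all genes from 0.03 to 0.20, and 60.8% of its calls were higher in KO against 48.1%.

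Replicate numbers did not pair the libraries: deviations of same-numbered libraries correlated at -0.16, -0.19 and -0.18, below those of other pairs (0.07 to 0.10). With the replicate block, 11184 genes were called.

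Of 78 list medians 17 changed sign under at least 1 alternative, most of them lists near 0 such as the core spliceosome and the interferon response. Among the named genes 4 that were not called changed sign, and the cause was not tested. Dlx1 and Eif3j2 were called in the corrected fit, and with each library left out of it at adjusted p up to 0.00175 and 0.000327. Dlx1 (-0.02) was at 0.16 with upper-quartile scaling, 0.65 in the corrected fit, 0.66 with the replicate block and the correction, 0.14 among protein-coding genes and 0.0058 without haemoglobin and mitochondrially encoded genes, and ranged from -0.10 to 0.78 with a library left out. Ttr (-0.06) was at 0.11 with upper-quartile scaling and 0.092 among protein-coding genes, and ranged from -0.69 to 0.015 with a library left out. Hbb-bh1 (0.04) was at -0.051 without a filter, -0.58 in the corrected fit and -0.57 with the replicate block and the correction, and ranged from -0.88 to 0.37. Eif3j2 (0.01) was at -0.085, -0.71 and -0.71 in the same order, and ranged from -0.78 to 0.076. Among the other named genes no direction changed, and Rgs5, Mad2l1, Cd24a, Rian, Egfl7 and Atf4 lost their call under at least 1 alternative.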
